A study of Mus musculus with 12 samples.

Results

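Endothelial cells of collecting lymphatic vessels were compared with those of lymphatic capillaries in mouse ear skin, across all genes measured on whole-transcript arrays. The comparison rests on 6 of the 12 arrays of the series, the 3 titled col LEC and the 3 titled cap LEC, and takes in 19675 genes, each represented by its brightest row. LEC stands for lymphatic endothelial cell. Both groups came from C57BL6 mice that were 5 weeks old, an age that the labels elsewhere call adult, and all mice carried the Prox1-GFP reporter transgene Tg(Prox1-EGFP)KY221Gsat. Cells bearing PECAM1 were first enriched on magnetic beads and then sorted on podoplanin and the reporter, and LYVE1, a hyaluronan receptor, divided the lymphatic cells: LYVE1-high for cap LEC and LYVE1-low/- for col LEC. A LYVE1-intermediate gate (pre-col LEC) and blood endothelial cells without the lymphatic markers (BEC), with 3 arrays each, entered the fit and are given beside some results. Each group is therefore a LYVE1 gate within 1 organ and not a dissected vessel, so cells of valves and of the vessel wall between them share the col LEC gate. The arrays of a group are labelled biological replicates. Whether 1 mouse or a pool stands behind each is unstated. The p-values therefore rest on the spread between samples within the 4 groups fitted, and not on a known number of mice. An extract of 500 pg of RNA was amplified for each array.

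Lymphatic capillaries are blind-ended, take up fluid, macromolecules and immune cells through loosely joined endothelial flaps, and drain through pre-collecting vessels into collecting vessels. Collecting vessels have continuous junctions, a basement membrane, intraluminal valves and, in most organs, a muscle coat whose contractions are tuned by nitric oxide, prostanoids and vasoactive peptides released by the endothelium. Endothelium of both kinds depends on the transcription factor PROX1 and on the growth factor receptor VEGFR3.

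The genes behind the gates check the labels and are not findings. Lyve1 read 10.20, 10.30 and 10.84 on the col LEC arrays, in the order of replicates 1 to 3, and 13.05, 13.04 and 13.15 on the cap LEC arrays (all levels are log2 RMA values). Its groups lay far apart in the direction of the gate, while both remained above the BEC mean of 6.84. Prox1 (means 12.55 in col LEC and 12.53 in cap LEC) and Pecam1 (12.26 and 12.21) differed by log2 values of 0.01 ± 0.20 and 0.05 ± 0.07 (SE). Pdpn, which encodes podoplanin, differed by -0.25 ± 0.12 (limma adjusted p = 0.496). Array medians of the 12 arrays were between 6.06 and 6.17. Correlations over the tested genes were 0.983 to 0.988 between col LEC arrays, 0.983 to 0.988 between cap LEC arrays and 0.973 to 0.984 between arrays of the 2 groups.

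Few markers of other skin cells were called. None of 22 tested genes of blood capillary and venous endothelium was called, and their summed linear level was 13209 to 14052 on cap LEC arrays, 14071 to 14655 on col LEC arrays and 57330 to 61325 on BEC arrays. The sums of col LEC lay above those of cap LEC without overlap. In this list 6 genes were higher and 2 lower without overlap, against 11.4% and 9.33% of all tested genes. None of 10 tested keratinocyte genes was called, and 4 were higher without overlap. The 16 with a row summed to 1485 to 1713 in cap LEC and 1632 to 1882 in col LEC. Mural cell genes (0 of 16 called) summed to 1975 to 2717 in cap LEC and 1985 to 2120 in col LEC. None of 12 tested fibroblast genes was called, and the 15 with a row summed to 1659 to 2003 and 1699 to 2796. Of 17 tested macrophage and dendritic cell genes only Mrc1 was called. The sum over the 22 with a row was 2814 to 3674 in cap LEC and 2243 to 2542 in col LEC. It overlapped between the groups once Mrc1 was left out, at 1778 to 2421 and 1931 to 2237 over 21 genes (a sum added after the data were seen). Among arterial genes 1 of 15 was called, Stmn2, lower in col LEC. Among adipocyte genes it was 1 of 5, Lipe, higher in col LEC. Stmn2 lost its call without any 1 of the col LEC or cap LEC arrays (adjusted p 0.0852 to 0.17), and Lipe without col LEC replicate 3 or any cap LEC replicate (0.0547 to 0.0657). The part of these markers in the results below was not tested.

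In all, 322 of 19675 genes (1.64%) were called by limma's test (adjusted p under 0.05). Collecting cells had the higher level for 128 of them (0.651%) and the lower for 194 (0.986%). A difference of 2-fold or more was found for 96 called genes (0.488%), of which 40 were higher (0.203%) and 56 lower (0.285%), and 12 reached 4-fold. The median absolute difference of the called genes was 0.76 on the log2 scale, and 80 of them differed by less than 1.5-fold. The 3 col LEC arrays and the 3 cap LEC arrays did not overlap for any of the 322 called genes, against 20.8% of all tested genes. Over all tested genes the median difference was 0.03, with 57.2% above 0. The call held for 137 genes, 55 higher and 82 lower, in each of the 6 fits that left out 1 col LEC or cap LEC array, and the genes described below belong to these unless a lost call is given. In RNA of sorted cells, fewer cells of a kind and less RNA per cell cannot be told apart. The gene lists used below were drawn up with earlier results of these arrays known, so their counts are not independent evidence. Every count of called members in a list or family below stands beside 0.651% of all tested genes called higher and 0.986% lower.

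**Figure D1:**
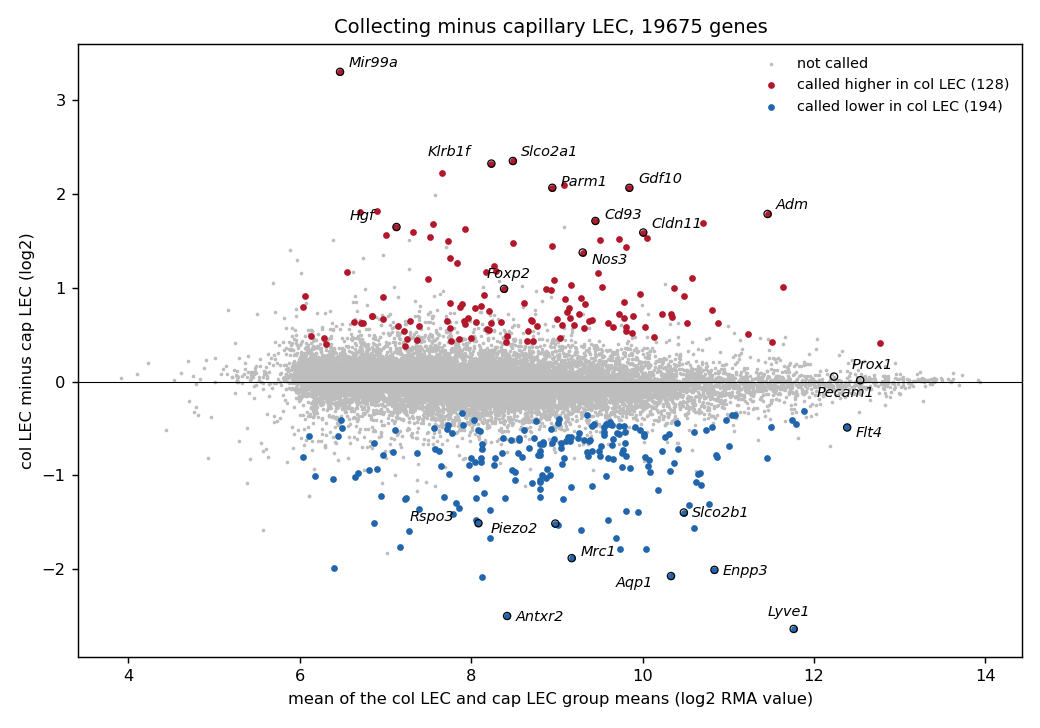
Each point is 1 of 19675 genes, with the mean of the col LEC and cap LEC group means (log2 RMA value) on the horizontal axis and the col LEC minus cap LEC difference (log2) on the vertical axis. The 128 genes called higher are red, the 194 called lower are blue, and the circled genes are named, with Prox1 and Pecam1 on the line of no difference.

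Several genes of vascular tone were higher in collecting cells. Of 27 tested genes for vasoactive peptides, nitric oxide and prostanoids, 5 were called higher and 1 lower, with a list median of 0.10. Slco2a1, the transporter that clears prostaglandins from the extracellular space, read 9.26, 9.98 and 9.75 in col LEC and 7.19, 7.33 and 7.41 in cap LEC. Every col LEC array was more than 1 log2 unit above every cap LEC array, and the col LEC mean of 9.66 was near the BEC mean of 9.75. The difference was 2.35 ± 0.19 (SE, adjusted p = 7.96e-05). Adm, which encodes the peptide adrenomedullin, read 12.65, 12.19 and 12.22 against 10.50, 10.49 and 10.71, a difference of 1.79 ± 0.16 (adjusted p = 0.000127). Here col LEC also exceeded the BEC mean of 10.78. The adrenomedullin receptor genes Calcrl and Ramp2 differed by 0.01 ± 0.12 and -0.14 ± 0.11 (adjusted p = 0.989 and 0.698).

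Nos3, the endothelial nitric oxide synthase, read 9.99 ± 0.16 (SD, range 9.83 to 10.14) in col LEC and 8.61 ± 0.07 (range 8.54 to 8.69) in cap LEC, n = 3 arrays each. The groups were separated by more than 1 log2 unit, and the difference was 1.38 ± 0.12 (adjusted p = 0.000127). Ednrb, the endothelin B receptor, read 9.94, 10.27 and 9.89 against 8.75, 9.08 and 9.25, again without overlap (1.01 ± 0.14, adjusted p = 0.00241). Its ligand gene Edn1 read 7.13, 7.22 and 7.25 against 6.50, 6.40 and 6.59, levels near the low end of the scale. The Edn1 difference of 0.70 ± 0.14 (adjusted p = 0.027) lost its call in each of the 6 fits that left out a col LEC or cap LEC array (adjusted p 0.0691 to 0.117) and after quantile normalization (0.0655). Ece1, the endothelin-converting enzyme, was at 12.36 and 12.69 (adjusted p = 0.135). Ackr3, a decoy receptor that binds adrenomedullin as well as CXCL12, was the member called lower, at 7.76, 8.19 and 7.99 against 8.67, 8.76 and 8.81 (-0.77 ± 0.17, adjusted p = 0.0496), and it too lost its call in each of these 6 fits (adjusted p 0.0616 to 0.192) and under 5 other settings (0.0503 to 0.0718).

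Flow-responsive genes changed in part. Of 21 tested, 5 were called higher and 2 lower, with a median of 0.07. The higher genes were Nos3, Edn1, Slco2a1, Foxp2 and Pdgfb. The lower genes were Nqo1, a quinone reductase of the oxidative stress response (-0.81 ± 0.16, adjusted p = 0.0233), and Id1, a BMP target (-0.45 ± 0.10, adjusted p = 0.0474), and both lost their calls in each of the 6 fits, at adjusted p up to 0.101 and 0.168. Klf2 and Klf4, transcription factors induced by shear stress, differed by 0.06 ± 0.14 and -0.12 ± 0.11 (adjusted p = 0.904 and 0.728), and the shear-sensing channel gene Piezo1 by -0.01 ± 0.10 (adjusted p = 0.988).

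**Figure D2:**
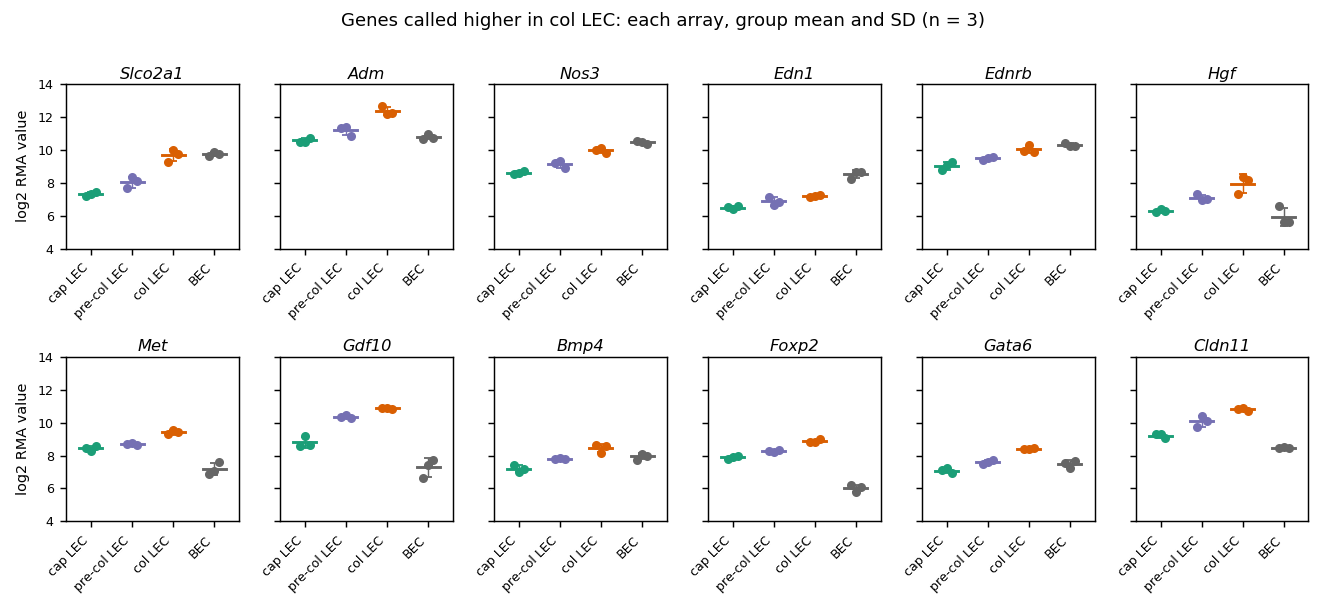
Points are log2 RMA values of single arrays for 12 genes called higher in col LEC, with the mean and SD of 3 arrays for cap LEC, pre-col LEC, col LEC and BEC. In each panel the col LEC points lie above the cap LEC points, and Slco2a1 and Adm show the widest gaps among the genes of vascular tone.

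Several growth factor genes were higher in col LEC, and for one of them the receptor was called as well. Hgf, hepatocyte growth factor, read 7.31, 8.37 and 8.18 against 6.22, 6.43 and 6.27. The lowest col LEC array was replicate 1, still above all cap LEC arrays, and the difference was 1.65 ± 0.28 (adjusted p = 0.0118). Hgf lost its call without col LEC replicate 2 or 3 or cap LEC replicate 1 or 3 (adjusted p 0.0519 to 0.057). Met, the receptor of HGF, was picked out after its values were seen. It read 9.28, 9.57 and 9.40 against 8.47, 8.28 and 8.59 (0.97 ± 0.16, adjusted p = 0.0099), and without cap LEC replicate 2 its adjusted p was 0.051. Tgfa, a ligand of the EGF receptor also picked out afterwards, read 9.32, 9.54 and 9.65 against 8.39, 8.45 and 8.44 (1.08 ± 0.11, adjusted p = 0.000265).

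Among 49 tested genes of BMP and TGF-beta signalling, 4 were called higher and 1 lower, with a median of 0.04. Gdf10, a TGF-beta family ligand, read 10.90, 10.89 and 10.85 against 8.59, 9.19 and 8.66. The col LEC arrays agreed within 0.1, the cap LEC arrays spread over 0.6, and the difference was 2.07 ± 0.23 (adjusted p = 0.000573). Bmp4, another secreted ligand of the family, read 8.64, 8.18 and 8.59 against 7.45, 6.99 and 7.17 (1.27 ± 0.14, adjusted p = 0.000724). The other 3 called members are modulators or a target. Bambi, a decoy receptor, was at 9.03 ± 0.20 and 8.39 ± 0.16 (SD, n = 3 arrays each, adjusted p = 0.0466), and Fstl1, a secreted binding protein, at 11.72 ± 0.09 and 11.30 ± 0.04 (adjusted p = 0.0321). Fstl1 lost its call in each of the 6 fits (adjusted p 0.067 to 0.133). Bambi kept it only without col LEC replicate 1, with adjusted p 0.0564 to 0.186 without the others. The fifth was Id1, lower as given above.

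A few genes for proteins of the extracellular matrix were called. Of 54 tested genes of basement membrane and matrix, 3 were called higher (Mmrn2, Ltbp1 and Sbspon) and 1 lower (Tnxb), with a median of 0.03. Of 52 genes in the list of matrix proteases and inhibitors 3 were called in each direction (median 0.04). The higher ones, Adamts1, Adamts9 and Plat, are proteases, and the lower ones were Mmp2 and the matrix receptor genes Antxr1 and Antxr2. Adamts1, a secreted protease that cleaves large proteoglycans, read 9.86, 10.54 and 10.01 against 7.96, 7.92 and 8.24, with all col LEC arrays near the BEC mean of 10.32 (2.10 ± 0.20, adjusted p = 0.000223). Its relative Adamts9 read 8.53, 8.90 and 9.20 against 7.54, 7.85 and 7.70 (1.18 ± 0.19, adjusted p = 0.00896). These were the called members of 21 tested Adamts genes, whose median was 0.07. Mmrn2, an endothelial matrix glycoprotein, read 11.11, 11.26 and 11.03 against 10.23, 9.89 and 9.96 (1.10 ± 0.11, adjusted p = 0.000223). It is a known ligand of the membrane receptor CD93, and Cd93 read 10.30, 10.41 and 10.21 against 8.76, 8.32 and 8.70 (1.71 ± 0.14, adjusted p = 7.96e-05). Both genes lay above cap LEC on every col LEC array, as did every gene called higher, and both were below their BEC means. A link between the 2 differences was not tested.

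Sbspon, which encodes a secreted protein with a somatomedin B and a thrombospondin domain, read 9.02, 8.96 and 8.34 against 6.82, 6.36 and 6.46 (2.22 ± 0.27, adjusted p = 0.0011). Ltbp1, which holds latent TGF-beta in the matrix, differed by 0.74 ± 0.15 (adjusted p = 0.0319) and Plat, tissue plasminogen activator, by 0.99 ± 0.20 (adjusted p = 0.0267). Ltbp1 kept its call only without cap LEC replicate 3 (adjusted p 0.0603 to 0.125 without the others), and so did Plat (0.0568 to 0.103). Itga3, an integrin chain that binds laminins, was at 8.60 ± 0.10 and 7.69 ± 0.10 (SD, adjusted p = 0.00295). It was the called gene of 26 tested in the integrin list (median -0.04), which also holds genes other than integrins. Among 24 tested genes with an Itga or Itgb symbol Itga3 was again the called one, with a median of 0.08. Of 42 collagen genes tested none was called higher, and Col23a1 was called lower (-0.61 ± 0.09, adjusted p = 0.00363). Over all tested genes 1.64% were called, so a family of this size can hold 1 call or none at that rate. Ccdc3, which encodes a secreted protein of endothelial cells and fat, read 11.53, 11.61 and 11.52 against 9.63, 10.16 and 9.82 (1.69 ± 0.23, adjusted p = 0.00259). Fibin, another secreted protein, read 9.65, 8.63 and 7.95 against 6.86, 7.33 and 7.15. The col LEC arrays of Fibin spread over more than 1.5 log2 units, and the gene lost its call without col LEC replicate 2 or any cap LEC replicate (adjusted p 0.0559 to 0.0953), as it did with the 6 arrays alone (0.11).

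Cell contact genes named a small set. Of 24 tested genes of tight and gap junctions 2 were called, both higher (median 0.11). Cldn11, a claudin known from valve endothelium, read 10.83, 10.87 and 10.71 against 9.29, 9.28 and 9.07, a gap of more than 1.4 log2 units between the nearest arrays (1.59 ± 0.14, adjusted p = 0.000109). Lsr, the angulin that seals junctions where 3 cells meet, read 8.69, 9.11 and 8.86 against 7.53, 7.68 and 7.74 (1.24 ± 0.12, adjusted p = 0.000216). Cldn5, the main claudin of endothelium, differed by 0.03 ± 0.13 (adjusted p = 0.95), and Cdh5, which encodes VE-cadherin, by less than 0.01 in size (adjusted p = 0.988). In axon guidance, 2 of 51 tested genes were called higher and 1 lower (median 0.08). Epha4, an ephrin receptor, read 8.35, 7.47 and 7.55 against 6.56, 6.12 and 6.01 (1.56 ± 0.21, adjusted p = 0.00211). Cap LEC replicates 2 and 3 of Epha4 lay near the array medians, so the size of this difference may depend on background. Neo1, which encodes the netrin and repulsive guidance molecule receptor neogenin, read 9.90, 10.33 and 9.93 against 8.79, 8.92 and 8.98 (1.15 ± 0.14, adjusted p = 0.000897). Sema6a, a transmembrane semaphorin, was lower by a smaller amount (-0.41 ± 0.08, adjusted p = 0.0293) and lost its call in each of the 6 fits (adjusted p 0.052 to 0.137) and after quantile normalization (0.146).

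Of 33 tested genes known from lymphatic valves and collecting vessels, 6 were called higher and none lower, with a median of 0.11. The 6 were Cldn11, Neo1, Bmp4, Adamts1, Foxp2 and Mmrn2. Because earlier results of these arrays were known when the list was drawn up, its direction is not independent evidence of collecting identity. Foxc2, the transcription factor required for valves, read 8.99, 9.39 and 9.30 against 8.71, 8.94 and 8.96, without overlap but short of a call (0.36 ± 0.14, adjusted p = 0.346). Gata2 differed by 0.29 ± 0.08 (adjusted p = 0.135). The valve integrin gene Itga9 and the connexin gene Gja4 had values below 0, at -0.11 ± 0.11 and -0.17 ± 0.10 (adjusted p = 0.751 and 0.619).

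Transcription factors were called in both directions, where 0.651% of all tested genes were called higher and 0.986% lower. Of 104 tested in the list of endothelial transcription factors, 3 were called higher and 5 lower, with a median at 0.00. Foxp2, a forkhead factor, read 8.83, 8.83 and 8.98 against 7.77, 7.94 and 7.96 (0.99 ± 0.10, adjusted p = 0.000387). Its BEC mean of 6.0 was below both groups. Gata6, a zinc finger factor, read 8.41, 8.37 and 8.45 against 7.11, 7.25 and 6.91 (1.32 ± 0.12, adjusted p = 0.00013). The third, the nuclear receptor gene Rora, held its call in 1 of the 6 fits (adjusted p up to 0.17) and lost it where the mean of all rows of the gene replaced the brightest row (adjusted p = 0.72). Factors outside the list were called as well, among them Zfp462, higher (0.66 ± 0.11, adjusted p = 0.0112), and Klf12, lower (-1.03 ± 0.19, adjusted p = 0.0206). Each of these kept its call in 3 of the 6 fits.

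Receptors of immune signals were also among the higher genes. Il13ra1, a chain of the interleukin-13 receptor, read 9.62, 9.78 and 9.60 against 8.37, 8.29 and 8.02 (1.44 ± 0.14, adjusted p = 0.000223). Il6st, the signal-transducing chain gp130, differed by 0.42 ± 0.07 (adjusted p = 0.00684), with means of 12.98 ± 0.03 and 12.56 ± 0.04 (SD). These were the called members of 42 cytokine and interleukin receptor genes, whose median was 0.06. C5ar2, a receptor for complement C5a picked out after its values were seen, read 9.66, 9.91 and 9.48 against 8.70, 8.66 and 8.60 (1.03 ± 0.14, adjusted p = 0.00213). Of 33 coagulation and complement genes 3 were called higher (Plat, Cfb and Cd93) and 1 lower (Serping1), with a median of 0.08. Cfb, complement factor B, differed by 0.82 ± 0.13 (adjusted p = 0.00704), while Serping1, which encodes the C1 inhibitor, was lower by -0.74 ± 0.11 (adjusted p = 0.00387). The row annotated Klrb1f, a lectin-like receptor gene of natural killer cells, read 9.50, 9.28 and 9.42 against 7.31, 7.19 and 6.73 (2.32 ± 0.25, adjusted p = 0.000443). That gene belongs to a family of close copies that may share probes. None of 5 tested T and NK cell genes was called, and the sum over the 11 with a row was 636 to 701 in cap LEC and 651 to 720 in col LEC.

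Odc1, ornithine decarboxylase, the first enzyme of polyamine synthesis, read 10.70, 10.88 and 10.88 against 9.10, 9.39 and 9.37 (1.53 ± 0.14, adjusted p = 0.000151). Parm1 encodes a mucin-like protein of the cell membrane and had the smallest p of the higher genes. It read 9.91, 10.14 and 9.89 against 7.92, 7.94 and 7.88 (2.07 ± 0.10, adjusted p = 2.29e-06). Fmo2, a flavin monooxygenase, read 10.48, 10.62 and 10.48 against 9.50, 8.67 and 9.09 (1.44 ± 0.21, adjusted p = 0.00461). Slc41a1, a magnesium transporter, read 12.18, 12.22 and 12.04 against 11.05, 11.15 and 11.21 (1.01 ± 0.08, adjusted p = 4.86e-05). Apoe, apolipoprotein E, differed by 0.88 ± 0.13 (adjusted p = 0.00379) and was, with the fatty acid transport gene Slc27a3, one of 2 genes called higher among 37 of lipid handling (2 lower, median -0.05). Slc27a3 lost its call in each of the 6 fits that left out a col LEC or cap LEC array (adjusted p 0.0559 to 0.141) and with the 9 LEC arrays (0.0528). Ahsg encodes the secreted glycoprotein fetuin-A and differed by 1.54 ± 0.16 (adjusted p = 0.000308). Of 286 tested genes with a solute carrier symbol (Slc), 7 were called higher and 5 lower (median 0.04), where 1.64% of all tested genes were called. Among these calls only Slc41a1, Slc44a2, Slc38a4 and Slc9a9 held in each of the 6 fits. Slc2a1, the glucose transporter GLUT1, and Adm were the called genes of 37 in the glycolysis and hypoxia list (median 0.03), and Slc2a1 (0.58 ± 0.11, adjusted p = 0.0233) kept its call only without col LEC replicate 1 (adjusted p 0.0608 to 0.0943 without the others).

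Of the microRNA rows, that for Mir99a read 8.04, 7.45 and 8.88 in col LEC and 4.66, 4.73 and 5.07 in cap LEC (3.30 ± 0.49, adjusted p = 0.00458), with pre-col LEC arrays spread from 4.86 to 7.25 and a BEC mean of 4.91. The cap LEC values and the BEC mean lay below the array medians, so the row passed the filter on dim genes through col LEC and pre-col LEC arrays, and the size of its difference depends on signal that may be background. Such a row measures RNA of the hairpin gene's transcript cluster and not the mature microRNA. Mir8118 was the other call among 506 microRNA rows tested, 396 of which lay above 0 (median 0.12). It read 7.84, 7.29 and 8.31 against 5.79, 6.24 and 5.95 (1.82 ± 0.24, adjusted p = 0.00201). Cap LEC replicates 1 and 3 and the BEC mean of 5.78 lay below the array medians, so this difference too may depend on background. The rows of Mir99a's relatives were not called. Mir100 was at 6.12 and 6.34 (-0.22 ± 0.12, adjusted p = 0.581) and Mir99b at 7.38 and 7.26 (0.12 ± 0.11, adjusted p = 0.746). The host transcript Mir99ahg differed by 0.28 ± 0.10 (adjusted p = 0.295). The mature sequences, from RefSeq on GRCm38.p6, are shown because the family shares its seed, bases 2 to 8 in capitals, so that the row that was called and those that were not encode microRNAs with the same seed. The miR-99a-5p sequence lies at chr16:77598940-77598961 on the plus strand.
mmu-miR-99a-5p: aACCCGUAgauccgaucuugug
mmu-miR-100-5p: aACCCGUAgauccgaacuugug
mmu-miR-99b-5p: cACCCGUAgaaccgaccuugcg
mmu-miR-8118: gACAAACAugacuaugcugaca
The first 3 have the seed ACCCGUA, and miR-8118 has another, ACAAACA.

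Genes lower in collecting cells included the mannose receptor gene and other genes of the capillary list. Of 11 tested lymphatic capillary genes, 8 were called lower and none higher, with a median of -1.51. The list holds the sort gene Lyve1 and was drawn up with earlier results of these arrays known, so its direction is not independent evidence. The other 7 were Mrc1, Piezo2, Itih5, Rspo3, Ackr2, Aqp1 and Cd200. Mrc1, the mannose receptor, read 8.45, 7.99 and 8.25 in col LEC and 10.29, 10.02 and 10.03 in cap LEC. The groups were separated by more than 1.5 log2 units, and both lay above the BEC mean of 5.79 (-1.88 ± 0.15, adjusted p = 8.46e-05). Mrc1 and the sort gene Lyve1 were the called members of 22 scavenger and endocytic receptor genes (median -0.00). Stab1, another scavenger receptor of lymphatic endothelium, differed by -0.16 ± 0.13 (adjusted p = 0.703).

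Of 18 tested hyaluronan genes, 1 was called higher and 3 lower. Apart from the sort gene Lyve1 these encode heavy chains of inter-alpha-trypsin inhibitor, which are linked covalently to hyaluronan. Itih5 read 8.52, 8.63 and 9.39 against 10.77, 10.47 and 10.65 (-1.78 ± 0.19, adjusted p = 0.000375). Itih3 read 7.66, 7.35 and 7.15 against 9.20, 9.09 and 8.87 (-1.67 ± 0.17, adjusted p = 0.000267). Itih2 went the other way, at 8.80, 8.41 and 8.23 against 6.85, 7.03 and 7.06 (1.5 ± 0.13, adjusted p = 0.000109). The heavy chain genes Itih1 and Itih4 were at 6.26 and 6.22, and at 6.18 and 6.28, near the array medians (adjusted p = 0.845 and 0.732). The hyaluronan synthase gene Has2 differed by 0.09 ± 0.12 and the receptor gene Cd44 by -0.03 ± 0.11 (adjusted p = 0.821 and 0.947).

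Both anthrax toxin receptor genes were lower. Antxr2, which encodes a receptor for laminin and collagen IV also known as CMG2, read 7.14, 7.44 and 6.93 against 10.13, 9.39 and 9.49. The col LEC arrays were at the level of BEC, whose mean was 7.01, and the difference was -2.50 ± 0.22 (adjusted p = 0.000127). Antxr1, a receptor for collagens, read 9.45, 9.65 and 9.70 against 10.77, 10.67 and 10.84 (-1.16 ± 0.11, adjusted p = 0.00018). Mmp2, the gelatinase that degrades collagen IV, read 9.02, 8.82 and 9.06 against 9.61, 9.88 and 9.77 (-0.79 ± 0.12, adjusted p = 0.00608). Mmp14, which activates MMP2 at the cell surface, and Timp2, an inhibitor that takes part in that step, differed by -0.18 ± 0.17 and -0.26 ± 0.08 (adjusted p = 0.738 and 0.159). Tnxb, the matrix protein tenascin-X, read 10.06, 10.06 and 10.14 against 11.08, 11.14 and 11.24 (-1.07 ± 0.10, adjusted p = 0.00013). Its neighbouring partial copy Tnxa gave -0.97 ± 0.10, and the rows of the copies may share probes. Serpina3n, a secreted serine protease inhibitor with close copies, read 8.76, 8.99 and 9.71 against 10.87, 11.07 and 10.88 (-1.79 ± 0.21, adjusted p = 0.000897).

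Channels that were called were all lower. Of 49 tested ion and water channel genes 3 were called, with a median of 0.05. Aqp1, the water channel of endothelium, read 9.28, 9.10 and 9.51 against 11.44, 11.25 and 11.42, more than 1.7 log2 units apart at the nearest arrays, and shared with Parm1 the smallest adjusted p of all genes (-2.07 ± 0.10, adjusted p = 2.29e-06). Its pre-col LEC mean of 11.17 was near that of cap LEC, 11.37. Piezo2, a stretch-activated cation channel, read 8.16, 8.14 and 8.37 against 9.71, 9.70 and 9.82 (-1.51 ± 0.18, adjusted p = 0.000796). Kcnn3, a calcium-activated potassium channel, read 10.01, 10.10 and 10.34 against 11.07, 11.20 and 11.14 (-0.99 ± 0.10, adjusted p = 0.000302). The BEC means of Piezo2 and Kcnn3, 6.24 and 7.96, lay below both groups. Among transporters, Slco2b1, an organic anion carrier, read 9.82, 9.83 and 9.70 against 11.32, 11.07 and 11.15 (-1.40 ± 0.09, adjusted p = 2.51e-05), and Slc9a9, a sodium/proton exchanger of endosomes, differed by -1.36 ± 0.18 (adjusted p = 0.00171).

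**Figure D3:**
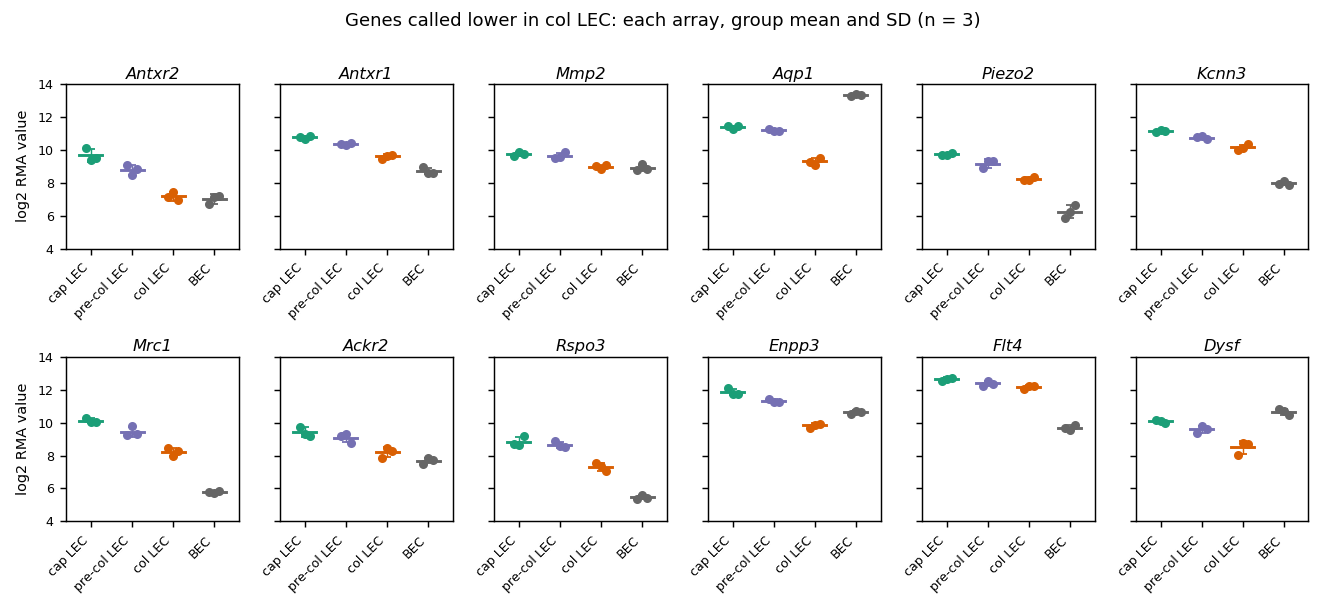
Points are log2 RMA values of single arrays for 12 genes called lower in col LEC, with the mean and SD of 3 arrays for cap LEC, pre-col LEC, col LEC and BEC. In each panel the col LEC points lie below the cap LEC points, most clearly for Antxr2, Enpp3 and Aqp1, and Flt4 shows the smallest gap.

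Chemokine and leukocyte contact genes gave 1 call higher (Cd93) and 4 lower among 38 tested, with a median of 0.06. Ackr2, which takes up and degrades inflammatory chemokines, read 7.87, 8.43 and 8.29 against 9.76, 9.33 and 9.17 (-1.23 ± 0.19, adjusted p = 0.00608). Cd200, a ligand that restrains myeloid cells, read 9.56, 9.76 and 9.65 against 10.67, 10.44 and 10.38 (-0.84 ± 0.12, adjusted p = 0.00282). Cxcl12, a chemokine, read 6.99, 6.86 and 7.12 against 7.62, 7.75 and 7.90 (-0.77 ± 0.17, adjusted p = 0.0454) and lost its call in each of the 6 fits (adjusted p 0.0836 to 0.171), as did its scavenger Ackr3, given above. The rows for Ccl21a name several genes, so that Ccl21a was not analysed here.

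Calls in the Wnt and VEGF lists stand beside a share of 1.64% over all tested genes. Rspo3, an enhancer of Wnt signalling, was the called gene of 55 in the Wnt and planar polarity list (median 0.05). It read 7.56, 7.35 and 7.08 against 8.71, 8.63 and 9.19 (-1.51 ± 0.17, adjusted p = 0.000516), with a BEC mean of 5.47. Lgr4, a receptor of R-spondins, was near the array medians in both groups, at 6.08 and 6.05. Of 22 tested VEGF, PDGF and angiopoietin genes, 1 was called higher and 2 lower (median 0.09). Flt4, which encodes VEGFR3, read 12.01, 12.23 and 12.19 against 12.51, 12.67 and 12.72, without overlap (-0.49 ± 0.11, adjusted p = 0.0482). It lost its call in each of the 6 fits (adjusted p 0.0635 to 0.19). The call was also lost after cyclic loess (0.116) or quantile normalization (0.0904), with the 6 arrays alone (0.0583), with the 9 LEC arrays (0.0512) and without the filter on dim genes (0.0618). Its partner Nrp2 read 11.03 ± 0.35 and 11.66 ± 0.17 (SD, adjusted p = 0.122), and Kdr, which encodes VEGFR2, differed by 0.04 ± 0.09 (adjusted p = 0.911). Among 17 lymphatic identity genes 2 were called, Flt4 and the sort gene Lyve1, both lower, and the list median was -0.16. The groups were divided by LYVE1, so the Lyve1 call is not a finding.

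Pdgfd and Pdgfb, both ligands of the PDGF receptor beta, were called in opposite directions. Pdgfd read 6.02, 6.83 and 6.56 against 8.79, 7.72 and 7.69 (-1.60 ± 0.28, adjusted p = 0.0134), with an adjusted p of 0.0592 without col LEC replicate 1. Pdgfb read 8.49, 8.57 and 8.38 against 8.13, 7.93 and 7.74 (0.55 ± 0.11, adjusted p = 0.0241). It lost its call without col LEC replicate 1 or 2 or cap LEC replicate 2 or 3 (adjusted p 0.0869 to 0.0975). With the 6 arrays alone neither Pdgfd (0.0732) nor Pdgfb (0.0716) was called. The 4 tested Slco genes gave Slco2a1 higher and Slco2b1 lower, and Slco3a1 and Slco4a1 differed by -0.08 ± 0.08 and 0.05 ± 0.10. Of 30 cadherins and protocadherins, 1 was called higher and 2 lower (median 0.08). Pcdh7 read 8.46, 8.31 and 8.41 against 6.78, 6.78 and 6.59 (1.68 ± 0.14, adjusted p = 0.000101). Pcdh17 read 6.84, 6.08 and 5.95 against 8.53, 7.94 and 7.70 (-1.77 ± 0.29, adjusted p = 0.00996), and Pcdh12 differed by -0.89 ± 0.14 (adjusted p = 0.0069). Pcdh17 on col LEC replicates 2 and 3 and Pdgfd on col LEC replicate 1 lay near or below the array medians. The sizes of the Pcdh17 and Pdgfd differences may therefore depend on background.

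**Figure D4:**
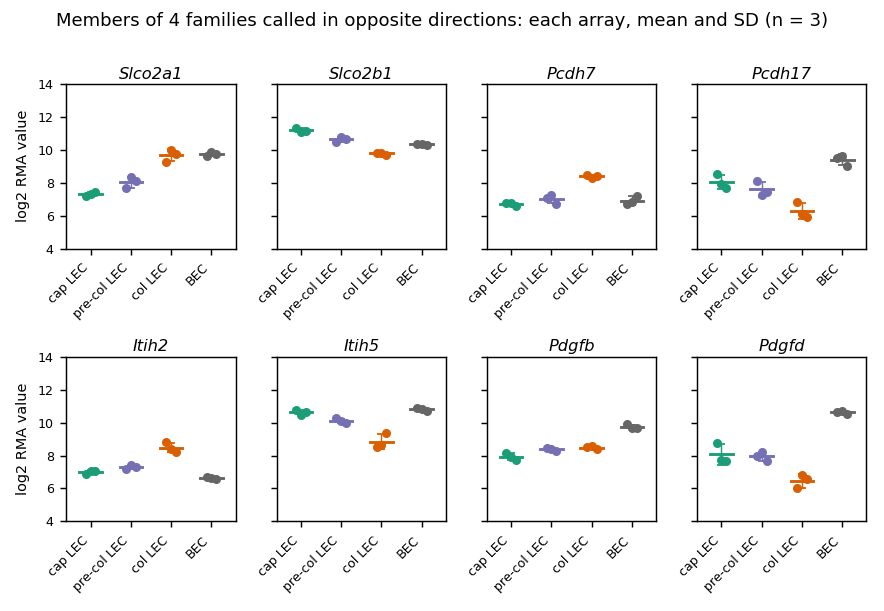
Points are log2 RMA values of single arrays, with the mean and SD of 3 arrays in each of 4 groups, for members of 4 gene families that were called in opposite directions. Slco2a1, Pcdh7, Itih2 and Pdgfb are higher in col LEC than in cap LEC and Slco2b1, Pcdh17, Itih5 and Pdgfd are lower, with the smallest gap for Pdgfb.

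Enzymes at the cell surface and in lipid signalling were lower in a few cases. Of 28 tested genes of purine and sphingosine-1-phosphate handling none was called higher and 2 lower (median 0.04). Enpp3, an ectoenzyme that hydrolyses extracellular nucleotides, read 9.70, 9.88 and 9.93 against 12.07, 11.73 and 11.74 (-2.01 ± 0.11, adjusted p = 4.12e-06). Plpp3, a phosphatase of lipid mediators, differed by -0.48 ± 0.08 (adjusted p = 0.0132) and lost its call without col LEC replicate 1 or 2 or cap LEC replicate 2 or 3 (adjusted p 0.05 to 0.0738). The sphingosine-1-phosphate receptor gene S1pr1 and the exporter gene Spns2 differed by 0.01 ± 0.08 and 0.11 ± 0.14 (adjusted p = 0.973 and 0.817). Cyp4b1, a cytochrome P450, and its neighbour Cyp4b1-ps2, which may share probes, differed by -1.30 ± 0.23 and -1.51 ± 0.24 (adjusted p = 0.0137 and 0.00644). The col LEC values of Cyp4b1-ps2 lay near the array medians. Cyp4b1 lost its call without col LEC replicate 2 or 3 or cap LEC replicate 1 or 2 (adjusted p 0.0526 to 0.0635).

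Adgrg3, an adhesion G protein-coupled receptor, read 9.52, 9.90 and 10.03 against 11.29, 11.45 and 11.41 (-1.57 ± 0.17, adjusted p = 0.000388). With Adgrl4 it was one of 2 genes called, both lower, among 13 adhesion receptor genes tested (median 0.06), and Adgrl4 (-0.52 ± 0.11, adjusted p = 0.0403) lost its call in each of the 6 fits (adjusted p 0.0852 to 0.151). Gpr31b, a receptor with a close copy, read 7.96, 9.52 and 9.09 against 10.62, 10.67 and 10.31, and lost its call without any 1 cap LEC replicate (adjusted p 0.0549 to 0.0829) or with the 6 arrays alone (0.0843). Shc3, an adaptor of receptor tyrosine kinases, read 7.02, 7.06 and 7.18 against 8.77, 9.35 and 9.39. Its difference of -2.08 ± 0.39 (adjusted p = 0.0198) kept its call only without cap LEC replicate 1 (adjusted p 0.0584 to 0.095 without the others).

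Of 47 tested genes of the cytoskeleton and membrane repair, 1 was called higher and 4 lower, with a median at -0.00. Dysf, which encodes the membrane repair protein dysferlin, read 8.04, 8.73 and 8.69 against 10.13, 10.12 and 9.96 (-1.58 ± 0.17, adjusted p = 0.000516). Ablim3, an actin-binding protein, read 8.86, 8.67 and 9.06 against 10.34, 10.39 and 10.29 (-1.48 ± 0.11, adjusted p = 4.86e-05). Myo5b, a motor of recycling vesicles, differed by -1.24 ± 0.15 (adjusted p = 0.000944), and Myo1e, a membrane-bound myosin, by -0.53 ± 0.11 (adjusted p = 0.0346). Myo1e kept its call only without cap LEC replicate 2, with adjusted p 0.0772 to 0.139 without the others, and lost it with the 6 arrays alone (0.0719) and after cyclic loess (0.0605). Nuak1, a kinase that acts on myosin phosphatase, was the gene called higher (0.83 ± 0.14, adjusted p = 0.0118), and it lost its call without col LEC replicate 2 or cap LEC replicate 2 or 3 (adjusted p 0.057 to 0.0636). Hecw2, a ubiquitin ligase, read 7.41, 7.46 and 7.08 against 8.74, 8.83 and 8.82 (-1.48 ± 0.15, adjusted p = 0.000236).

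Further lower genes were picked out after their values were seen, for their known roles. Lepr, the leptin receptor, read 8.27, 8.45 and 7.98 against 9.49, 9.39 and 9.25 (-1.14 ± 0.14, adjusted p = 0.000944). Pappa, a protease that frees insulin-like growth factors from their binding proteins, read 8.0, 8.03 and 8.49 against 9.04, 9.45 and 9.28 (-1.09 ± 0.16, adjusted p = 0.00458). Igf2, one of those growth factors, read 8.48, 8.57 and 8.36 against 9.0, 9.19 and 9.22 (-0.67 ± 0.10, adjusted p = 0.00684). Col LEC arrays were below all cap LEC arrays for both the protease and the growth factor, as for every gene called lower. Gas6, the ligand of the TAM receptor kinases, differed by -0.51 ± 0.08 (adjusted p = 0.00458), and Pcsk6, a proprotein convertase, by -0.82 ± 0.12 (adjusted p = 0.00335). Fyn, a Src family kinase, and Pik3cg, a catalytic subunit of phosphoinositide 3-kinase, differed by -0.69 ± 0.08 and -0.95 ± 0.14 (adjusted p = 0.000577 and 0.00451). Rgs2, which limits signalling by Gq-coupled receptors, differed by -1.05 ± 0.14 (adjusted p = 0.00169). Of the 5 genes called lower in the list of endothelial transcription factors, Aff3 kept its call in each of the 6 fits (-0.93 ± 0.11, adjusted p = 0.00107). Mef2c (-0.48 ± 0.08, adjusted p = 0.0132) lost it without col LEC replicate 2 or 3 or cap LEC replicate 2 or 3 (adjusted p 0.0547 to 0.0673), and Meox2, Tshz2 and Id1 lost it in all 6, with adjusted p up to 0.173, 0.113 and 0.168. Tshz2 was not called from the mean of its rows either (0.511).

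Several lists had no called member. Only 1.64% of all tested genes were called, so lists of this size can lack a call at the general rate. None of 23 Notch genes was called (median 0.06), and those with the smallest p were Notch2 (-0.37 ± 0.11, adjusted p = 0.142) and the ligand gene Jag1 (0.33 ± 0.11, adjusted p = 0.24). None of 33 cell cycle genes was called, with 8 above 0 and a median of -0.13, below the all-gene median of 0.03. Mcm6, a replication helicase subunit, was at 8.38 and 8.82 (adjusted p = 0.075), and the proliferation marker Mki67 at 6.42 ± 0.72 and 7.5 ± 0.40 (SD, adjusted p = 0.607). None of 18 cholesterol synthesis genes was called, with 3 above 0 and a median of -0.13, and the smallest p was that of the kinase gene Pmvk (-0.64 ± 0.15, adjusted p = 0.0657). No call was made among 39 interferon response genes (median -0.01) or 22 antigen presentation genes (median 0.02). Irf1, an interferon-induced factor, was at 9.10 and 8.38 (adjusted p = 0.0801), and Erap1, which trims peptides for presentation, at 8.58 and 7.87 (adjusted p = 0.0733).

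Of 43 immediate early and dissociation genes, 34 lay above 0, with a median of 0.19, the highest of the lists shown in the plot of gene lists. The phosphatase gene Dusp2 was the one called, at 9.32, 9.65 and 9.56 against 8.95, 8.90 and 8.85 (0.61 ± 0.12, adjusted p = 0.025). It kept its call only without col LEC replicate 1 (adjusted p 0.0657 to 0.103 without the others). Fos, Egr1 and Atf3 differed by 0.01 ± 0.14, 0.31 ± 0.16 and 0.39 ± 0.24 (adjusted p = 0.977, 0.537 and 0.618). The part of this list in the results was not tested. None of 20 ribosomal protein genes was called (median -0.02).

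**Figure D5:**
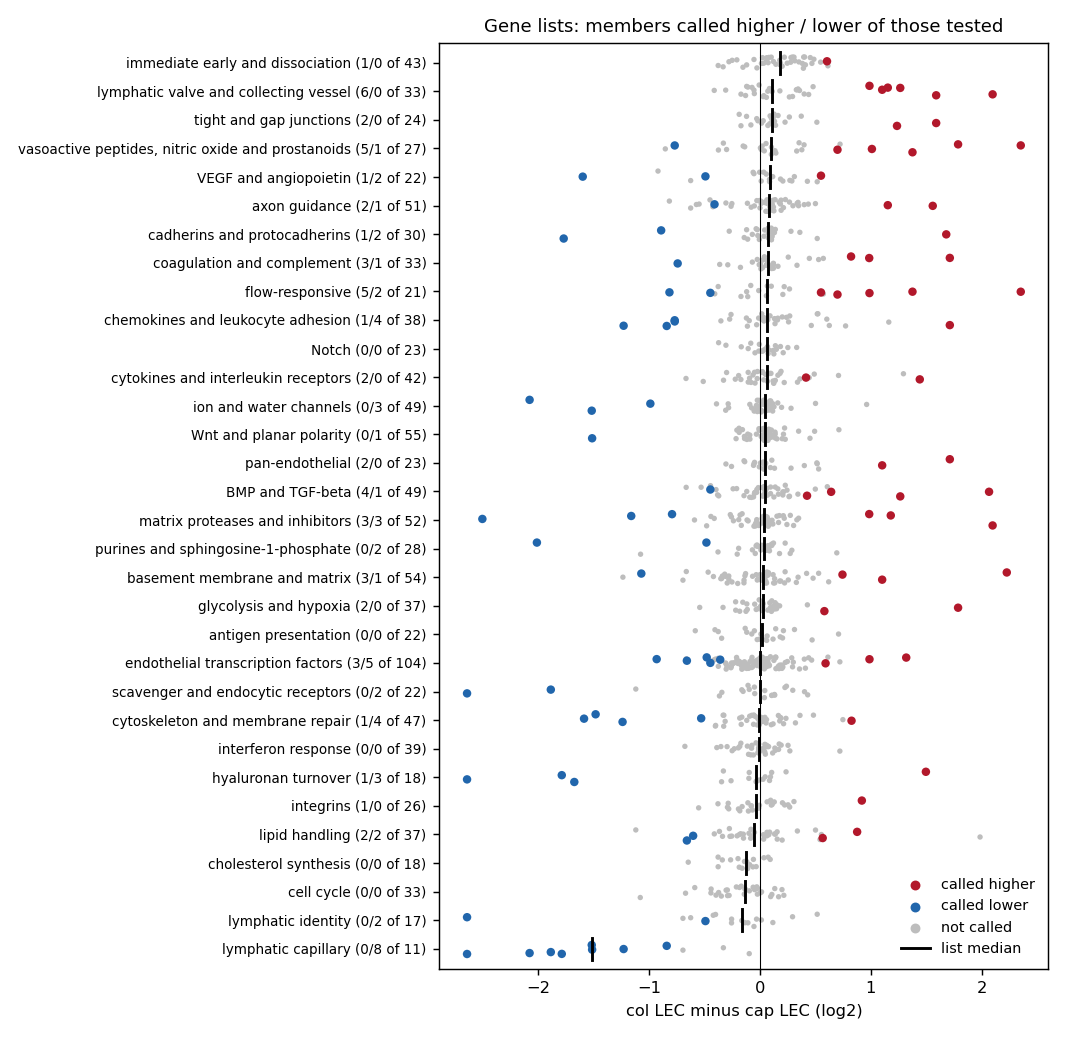
Each point is a tested gene of the list named at the left, placed by its col LEC minus cap LEC difference (log2), with black bars at list medians and red and blue points for genes called higher and lower. The lymphatic capillary list stands at the bottom with a median of -1.51, and the immediate early list at the top with 0.19.

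Promoter sequence was examined for the called genes, with windows from 250 bases before to 50 bases after each start in RefSeq (GRCm38.p6). Of 128 genes called higher 84 had a match, with 110 windows, and of 194 called lower 132, with 184 windows. The regions upstream of Parm1 and Aqp1 are printed because these genes had the smallest p in each direction. Capitals mark CCACCC or its reverse complement GGGTGG, the letters bound by Krüppel-like factors, found 2 times in each. Parm1 lies at chr5:91517450-91517699 and Aqp1 at chr6:55336049-55336298, both on the plus strand.
Parm1: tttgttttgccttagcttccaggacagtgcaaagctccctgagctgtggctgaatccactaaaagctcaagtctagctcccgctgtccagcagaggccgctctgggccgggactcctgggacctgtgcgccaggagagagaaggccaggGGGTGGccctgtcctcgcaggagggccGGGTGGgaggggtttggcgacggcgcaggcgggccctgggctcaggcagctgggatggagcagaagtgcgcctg
Aqp1: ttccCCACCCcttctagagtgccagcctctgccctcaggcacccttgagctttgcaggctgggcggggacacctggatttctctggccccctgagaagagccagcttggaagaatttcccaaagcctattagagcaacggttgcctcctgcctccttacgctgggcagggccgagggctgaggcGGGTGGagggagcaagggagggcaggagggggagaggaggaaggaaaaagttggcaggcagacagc
CCACCC was present on either strand in 44.5% of windows of genes called higher, 45.7% of those called lower, 38.1% of 15359 windows of tested genes and 31.5% of all 32851 windows. The forkhead letters TGTTTAC were in 5.45%, 4.89%, 2.67% and 3.65% of these sets in the same order. The GATA letters AGATAA were in 11.8%, 5.98%, 6.89% and 11.2%, and the NFAT letters TGGAAA in 15.5%, 22.3%, 17.0% and 21.4%. The AP-1 letters TGACTCA were in 5.45%, 5.43%, 4.06% and 5.2%, and the nuclear receptor letters AGGTCA in 6.36%, 14.7%, 13.6% and 16.3%. All were searched on both strands, and none of these motifs contains another. A match describes letters in the window and is not evidence of binding.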

How the data were processed

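RNA of 12 sorted samples was measured on whole-transcript arrays. The authors deposited log2 values made by RMA (per the submitters' processing notes), which subtracts background, equalises arrays and compresses differences of dim rows. Software version, annotation and genome build were not stated. Genes were named through the platform annotation (30604 rows with 1 symbol, 2146 with several, 33185 without), and symbols of 825 genes were updated through RefSeq. Rows of several genes were left out, save 612 whose symbols name 1 gene. The brightest row stood for a gene, and a gene was tested if it exceeded the median row of an array on 3 or more of the 12 arrays (19675 of 30743).

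Group means over all 12 arrays were fitted with limma 3.58.1 in R 4.3.3 (lmFit, eBayes), for col LEC minus cap LEC. Tests were two-sided, with Benjamini-Hochberg adjustment over all tested genes and calls at an adjusted p under 0.05. The number of arrays limits the precision: the median SD within groups was 0.141, with 3.63 prior and 8 residual degrees of freedom. Errors are standard errors of the fit unless named SD. The script was tested on simulated data.

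Members, gene lists and tests were chosen with earlier results of these data known. By rule, the text could name the sort genes, the 25 largest called differences in each direction without overlap (no predicted genes, small RNAs or receptor segments), called members of lists and families, and 2 genes of lists without calls. Other genes, including the microRNAs, the genes around Ccl21 and uncalled members, relatives, ligands and receptors set beside a result, were chosen after their values were seen. Alternatives covered the arrays fitted, the replicate block, array weights, normalization, the filter on dim genes, the variance model, the row used for a gene and leaving out each array.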

Additional observations from a re-analysis of the deposited data

How the results depend on the processing

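Against 322 called genes (128 higher and 194 lower), array weights gave 792 (323 higher and 469 lower), of which 320 were among the 322. Leaving out 1 array gave 180 to 351 calls (70 to 142 higher and 103 to 209 lower): 197, 195 and 203 without col LEC replicates 1, 2 and 3, and 205, 183 and 180 without cap LEC replicates 1, 2 and 3. These fits have fewer samples in the groups compared. The cause of the change with array weights was not tested. The 8 other settings gave 281 to 356 calls, and no called gene named by the rule reversed its direction under any of these settings. Of the named results, 24 lost their call with the 6 arrays alone, 13 with the 9 LEC arrays, 12 each after cyclic loess and without the filter, 8 after quantile normalization and 34 to 39 when 1 col LEC or cap LEC array was left out.

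The replicate number as a block gave 374 calls (146 higher and 228 lower), 291 of them shared with the 322. It ended the calls of 8 named results and added 1. The labels do not say that numbers mark a shared mouse or day. Same-numbered col LEC and cap LEC arrays had correlations of 0.165, 0.134 and 0.0927 between their deviations, and every array correlated best with its own number, a hint from the data and not from the design. No flag of detection was used, so differences of rows near the array medians are limited by background.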

Other observations

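Genes around the Ccl21 cluster were looked at after the data were seen, since Ccl21a, the chemokine that guides dendritic cells into lymphatic capillaries, had no row of its own. Of 17 tested genes within 100 kb of a gene annotated as Ccl21 in the RefSeq table, 8 were called lower in col LEC and none higher, 16 lay below 0, and the median difference was -0.64. Gm10601 read 9.23, 9.07 and 9.45 in col LEC and 10.67, 10.56 and 10.69 in cap LEC, with a BEC mean of 6.83 (-1.39 ± 0.21, limma adjusted p = 0.00451). Gm3893 (-1.38 ± 0.13), Gm13302 (-1.31 ± 0.17), Gm10600 (-1.31 ± 0.21), Gm12394 (-1.25 ± 0.16) and Gm7819 (-1.12 ± 0.13) were lower as well and, like Gm10601, kept their calls when any 1 col LEC or cap LEC array was left out. This region is present in several copies in the mouse genome, so its rows may share probes with each other and with Ccl21 genes, and their values are not independent.

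Rows outside the named genes were fitted too, a setting added after the data were seen. Among 14241 tested rows without a symbol 24 were called higher and 41 lower (0.456%), against 1.07% of 19604 rows of named genes in the same fit. Among 1116 annotated rows that are not gene rows 2 were called higher and 26 lower (2.51%).

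Proteins of the kind that shape the extracellular matrix and cell shape included further called genes outside the lists, picked out after their values were seen. Thbs4, a thrombospondin, read 7.48 ± 0.07 in col LEC and 6.94 ± 0.03 in cap LEC (SD, n = 3 arrays each, limma adjusted p = 0.00133), and Mfap2, a microfibril protein, 8.18 ± 0.19 and 7.34 ± 0.11 (adjusted p = 0.00328). Bcam, an adhesion molecule that binds laminin, read 9.54 ± 0.14 and 8.75 ± 0.12 (adjusted p = 0.00662). Gpnmb, a transmembrane glycoprotein, was lower in col LEC, at 8.27 ± 0.06 and 9.34 ± 0.18 (adjusted p = 0.000355), as was Chst15, a sulfotransferase of chondroitin sulfate, at 10.13 ± 0.41 and 11.23 ± 0.01 (adjusted p = 0.00458).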
